A study of Mus musculus with 4 samples.

Results

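The Rab small GTPases described here are the genes whose annotated symbol is Rab followed by a number and at most a single letter, which leaves out proteins that only interact with Rab GTPases. This gave 50 of 12393 named genes, read by 95 probe sets, and the probe set with the highest mean over the 4 arrays stood for each gene. Liver RNA came from male mice aged 12 to 20 weeks, and the 4 groups were PPARα-null mice fed Wy14643, PPARα-null mice fed the control diet, wild-type mice fed Wy14643 and wild-type mice fed the control diet. Wy14643, a synthetic PPARα agonist, was mixed in the chow at 0.1% by weight for 5 days, and control mice ate normal chow. PPARα-null mice are labelled 129S4/SvJae and wild-type mice 129S1/SvImJ, so that the disrupted Ppara gene and the substrain cannot be told apart. RNA of the mice of a group (5 per the labels) was pooled and hybridized to 1 Affymetrix array, which leaves no replicate check. No p-value is therefore given, and a gene is called higher or lower where its values differ by 1.5-fold or more, the threshold used in the study. For wild-type mice on Wy14643 the title and source name of the array set the group, because its description has the same words as that of the wild-type control.

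Rab proteins are small GTPases that switch between a GTP-bound form on a membrane and a GDP-bound form that is extracted into the cytosol. Each marks a particular compartment, and in its active form it binds the tethers, motors and coats that move vesicles to and from that compartment. In hepatocytes the family serves the secretion of plasma proteins and lipoproteins, the sorting of endocytosed receptors between the sinusoidal and the canalicular surface, autophagy and the coating of lipid droplets.

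Ppara itself read 428 and 326 in PPARα-null livers on Wy14643 and the control diet, against 1250.1 and 847 in wild-type livers on the same diets, that is, 2.92-fold and 2.60-fold lower in PPARα-null livers but well above background. Whether its probe set lies in the deleted part is not given in the sources used here. An intensity of at least 13.0 counted as above background, a level under which 90% of the values of 79 probe sets lay, for 54 genes of other tissues. On each array 52.9% to 53.7% of 22626 probe sets reached it, and the median intensity lay between 14.2 and 14.6. Of 13 hepatocyte markers, including the albumin gene Alb, 13 were above background. For scale, the log2 ratios of the pair of PPARα-null arrays had a standard deviation of 0.32 over genes above background on both, and this spread holds true change as well as measurement error.

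Of the 50 Rab genes, 35 were above background on all 4 arrays, 3 on some of them and 12 on none. The 12 were Rab2b, Rab3a, Rab3b, Rab3c, Rab6b, Rab15, Rab25, Rab27a, Rab33a, Rab37, Rab38 and Rab40b, which read between 4.29 and 12.9. Several of these are known from other tissues, such as Rab3a and Rab3c of synaptic vesicles and Rab25 of epithelia, and no ratio is given for them. The 3 genes above background on only some arrays were Rab8b (3 arrays), Rab3d (1 array, at 13.1 in wild-type livers on Wy14643) and Rab7b (1 array, at 13.6 in PPARα-null livers on Wy14643). The remaining members covered every compartment of the pathway: the early secretory route and Golgi (10 of 13 members above background on at least 1 array), endosomes and lysosomes (17 of 19), secretory vesicles and delivery to the plasma membrane (6 of 11), lysosome-related organelles and mitochondria (1 of 2) and cilia with other roles (4 of 5).

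**Figure D1:**
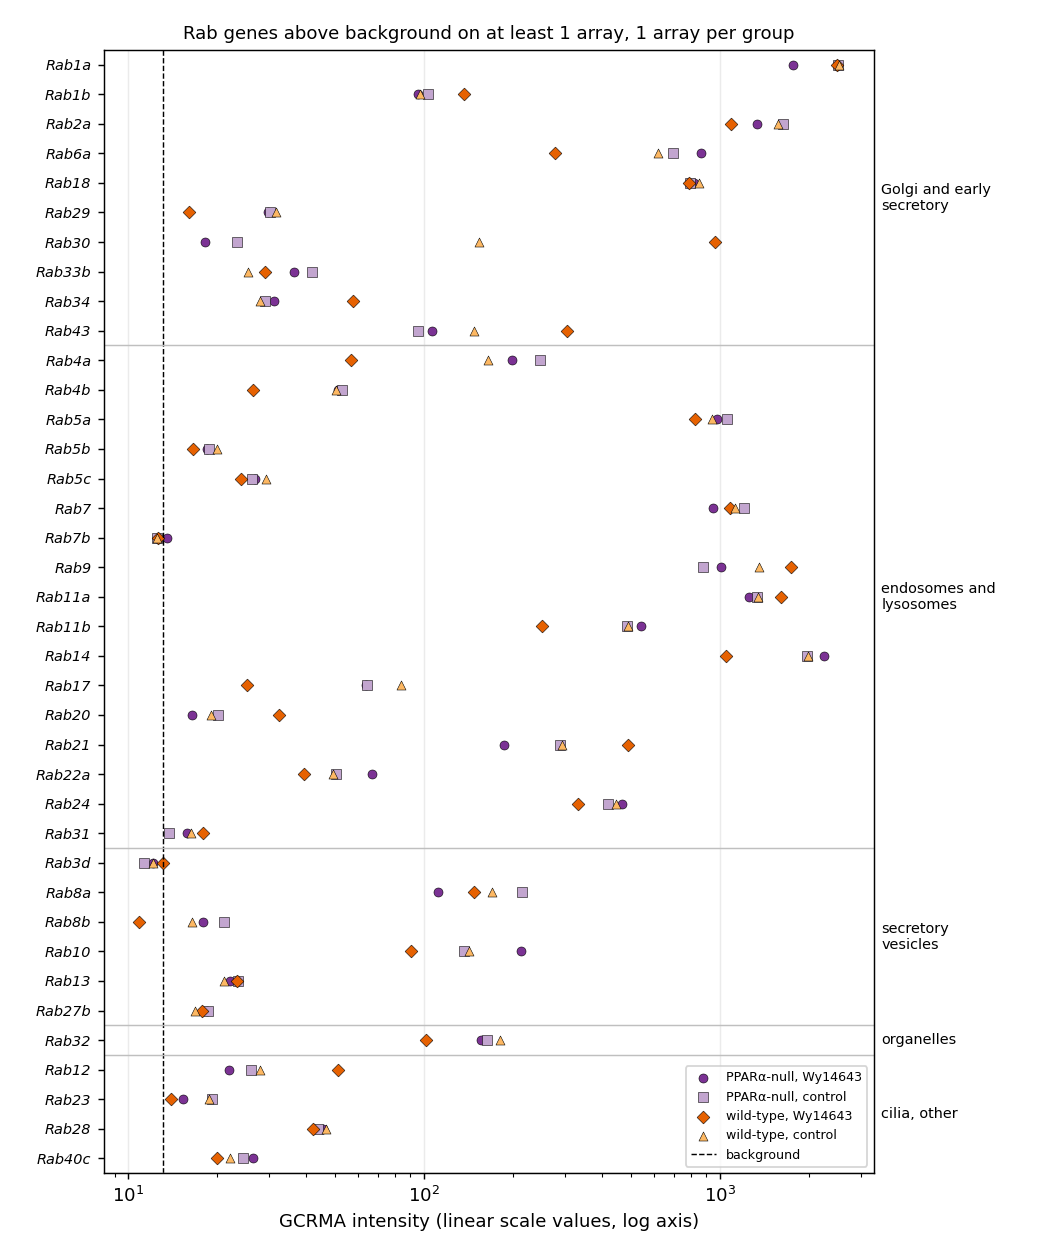
GCRMA intensity (horizontal, log axis) of the 38 Rab genes above background on at least 1 array, grouped by compartment, with 1 point per array and the background at 13.0 as a dashed line. Rab30 spans the widest range, at 18.1 and 23.3 in PPARα-null livers against 964 and 154 in wild-type livers; probe sets differ in affinity, so levels of different genes are not comparable.

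Rab30, a GTPase of the Golgi apparatus, had the largest ratio of the family in wild-type livers and between the genotypes on either diet. Its intensity was 18.1 in PPARα-null livers on Wy14643 and 23.3 in PPARα-null controls, against 964 in wild-type livers on Wy14643 and 154 in wild-type controls. Both PPARα-null pools thus lay close to background and below both wild-type pools. A small offset therefore has a large effect on the size of the Rab30 ratios between the genotypes. The PPARα-null level was 53.2-fold lower on Wy14643, and 6 of 6853 genes above background on both arrays were at least as far below, Rab30 included. The control diet also gave a 6.61-fold lower PPARα-null level, where 8 of 6952 genes were at least as far below. Wy14643 went with a log2 ratio of -0.36 in PPARα-null livers and with a 6.27-fold higher level in wild-type livers, a ratio that 57 of 6825 genes reached in wild-type livers. Rab30 was read by 1 probe set, so no other part of its transcript was measured.

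The question of how the agonist diet changes the family was addressed within each genotype. In PPARα-null livers, 1 of 37 Rab genes above background was above 1.5-fold against the control diet and 2 were lower (8.11% in all), where 2.29% of 7505 genes were higher and 4.44% lower (6.73% in all). Among wild-type pools the counts were 6 of 37 higher and 10 lower, or 16.2% and 27.0%, where 15.0% of 7598 genes were higher and 16.0% lower (31.0% in all). The share of higher members was thus near that of all genes and the share of lower members above it, a difference that carries no test. Of the 10 lower, Rab6a, Rab10, Rab14 and Rab17 passed by only 1 of their probe sets above background. Where every probe set above background had to pass, 4 members were higher and 6 lower, with 24.2% of 7603 genes called. The median log2 ratio of the members was -0.03 in PPARα-null livers and -0.15 in wild-type livers, against 0.00 and 0.02 over all genes.

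**Figure D2:**
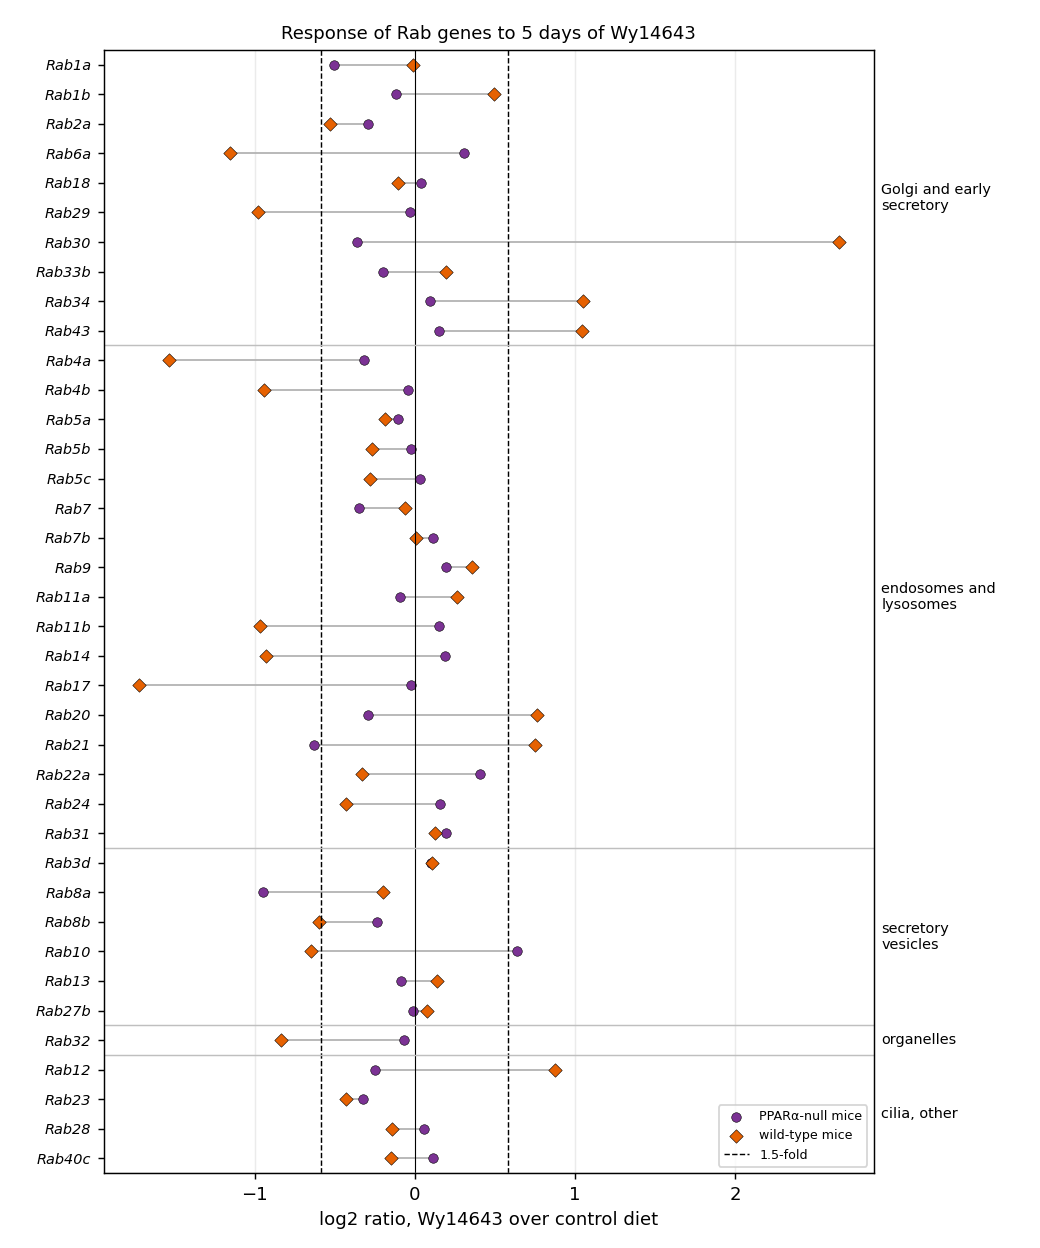
Log2 ratio of Wy14643 to control diet (horizontal) for the same 38 genes in PPARα-null livers (circles) and wild-type livers (diamonds), with dashed lines at 1.5-fold. Wild-type ratios run between -1.72 (Rab17) and 2.65 (Rab30), and PPARα-null ratios between -0.95 (Rab8a) and 0.64 (Rab10).

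The 16 members called in wild-type livers can be followed in PPARα-null livers, a comparison that shares no array with the first. Of the 16, Rab6a, Rab10, Rab14, Rab17, Rab21 and Rab43 passed the threshold by only 1 of the probe sets above background that read them. The further probe set of Rab21 barely reached background. Of the 6 that were higher in wild-type livers, 0 were higher in PPARα-null livers, 1 was lower (Rab21) and 5 lay between, with log2 ratios of -0.63 to 0.15. Over all 1139 genes higher in wild-type livers, 3.07% had the same call in PPARα-null livers and 2.99% the opposite one. Of the 10 that were lower in wild-type livers, 0 were lower in PPARα-null livers, 1 was higher (Rab10) and 9 lay between, with log2 ratios of -0.31 to 0.64. Over all 1215 genes lower in wild-type livers, 11.0% had the same call and 3.05% the opposite one. Beside these shares, 0 of 6 and 0 of 10 members show nothing particular to the family. Second probe sets of Rab4a and Rab6a, which are among the 10, gave -0.80 and -0.51 in PPARα-null livers.

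In the GTPases of the early secretory route and the Golgi, 0 of 10 passed the threshold on Wy14643 in PPARα-null livers, where 6.73% of all genes did. In wild-type livers Wy14643 went with 3 of 10 higher and 2 lower, where 15.0% and 16.0% of all genes were. Counts this small carry no test. Next to Rab30, the higher ones were Rab43 and Rab34. Rab43, which acts in transport between the endoplasmic reticulum and the Golgi, read 106 in PPARα-null livers on Wy14643, 95.7 in PPARα-null controls, 305 in wild-type livers on Wy14643 and 148 in wild-type controls. The wild-type Wy14643 pool lay above the other 3, and the ratio of Wy14643 to control was 0.15 on the log2 scale in PPARα-null livers and 1.04 in wild-type livers. Rab34, a Golgi GTPase that also takes part in cilium formation, read 31.0 and 29.0 in PPARα-null livers on Wy14643 and the control diet, and 57.7 and 27.8 in wild-type livers on the same diets. Only the wild-type Wy14643 pool stood apart, at a 2.07-fold higher level than in wild-type controls.

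Rab6a and Rab29 moved the other way. Rab6a, which directs retrograde traffic through the Golgi, read 862 in PPARα-null livers on Wy14643, 696 in PPARα-null controls, 278 in wild-type livers on Wy14643 and 618 in wild-type controls, so that the wild-type Wy14643 pool was the lowest of the 4, 2.22-fold below its control. By its other probe set the level was lower on Wy14643 in both genotypes, at log2 ratios of -0.51 in PPARα-null livers and -0.47 in wild-type livers, short of 1.5-fold. Rab29, found at the Golgi and on stressed lysosomes, read 29.6 and 30.2 in PPARα-null livers on Wy14643 and the control diet, and 16.0 and 31.5 in wild-type livers on the same diets, or 1.97-fold lower on Wy14643 in wild-type livers. It lies near background, where a small offset has a large effect on the ratio.

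The other Golgi and reticulum members stayed under 1.5-fold on Wy14643 in both genotypes. Rab1a, needed for transport out of the endoplasmic reticulum, read 1771 in PPARα-null livers on Wy14643, 2510.4 in PPARα-null controls, 2502 in wild-type livers on Wy14643 and 2526 in wild-type controls. The PPARα-null Wy14643 pool was the low one, at a log2 ratio of -0.50 to its control, short of 1.5-fold, which is 0.58 in size on this scale. Its close relative Rab1b read 95.1 and 103 in PPARα-null livers on Wy14643 and the control diet, and 136 and 96.7 in wild-type livers on the same diets, with the wild-type Wy14643 pool high at a log2 ratio of 0.49. Rab2a, which works in retrieval to the reticulum, read 1337 and 1637 in PPARα-null livers on Wy14643 and the control diet, and 1095 and 1577 in wild-type livers on the same diets, with the same pool low at -0.53. Rab18, a GTPase of lipid droplets and the reticulum, read 817 and 796 in PPARα-null livers on Wy14643 and the control diet, and 789 and 849 in wild-type livers on the same diets, a range within which the pools hardly differed. Its other probe set read 387 and 571 in PPARα-null livers on Wy14643 and the control diet, and 454 and 679.8 in wild-type livers on the same diets, lower on Wy14643 in both genotypes at log2 ratios of -0.56 in PPARα-null livers and -0.58 in wild-type livers, just short of 1.5-fold. Rab33b, which takes part in autophagosome formation, read 36.3 and 41.7 in PPARα-null livers on Wy14643 and control diet, and 29.0 and 25.3 in wild-type livers. Both PPARα-null pools lay above both wild-type pools, and the PPARα-null controls were 1.65-fold above the wild-type controls.

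PPARα binds DNA as a heterodimer with RXR at a direct repeat of AGGTCA with 1 base between, written AGGTCANAGGTCA. This motif was searched on both strands in the 250 bases before each annotated start (RefSeq, GRCm38.p6), with 54 windows for 42 of the Rab genes. Rab30 was not among the 42 and was not searched. Within 2 mismatches the motif was found in 1 of the 54 windows (1.85%), against 3.24% of 32851 windows of all genes, and within 3 mismatches in 7 (13.0%), against 21.3%. The 7 windows belong to Rab3a, Rab3b, Rab7, Rab11b, Rab28, Rab32 and Rab43. The Rab43 match is shown as the closest, Rab11b and Rab32 as the others of a gene called for the diet in wild-type livers, and Rab7 as that of a gene called in no comparison, 5′ to 3′ on the strand of the match, with bases that fit the motif in capitals:
Rab43: AGGTgAcAGGTtA
Rab7: tGGTCAaAGcTCc
Rab11b: AGGTCggAGGagA
Rab32: tGGTCAgAtGaCA
The Rab43 match differs from the motif at 2 bases and the others at 3. It lies on the strand opposite to the gene at chr6:87809865-87809877, 107 bases before the most downstream of 4 annotated starts. The window of that start (chr6:87809758-87810007, read on the minus strand, match in capitals) is printed because Rab43 was above 1.5-fold with the agonist in wild-type pools and was lower in both PPARα-null pools:
Rab43 window: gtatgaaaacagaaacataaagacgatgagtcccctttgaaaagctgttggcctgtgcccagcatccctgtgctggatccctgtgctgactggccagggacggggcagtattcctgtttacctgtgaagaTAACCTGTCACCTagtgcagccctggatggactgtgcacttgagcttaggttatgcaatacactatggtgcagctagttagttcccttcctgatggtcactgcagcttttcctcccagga
Rab43 was the only one of these 4 genes above 1.5-fold on Wy14643 in wild-type livers, whereas Rab11b and Rab32 were lower and Rab7 lay between. A match of letters does not show binding, and windows further away were not searched.

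Of the GTPases of endosomes and lysosomes, 2 of 16 were higher and 5 lower with Wy14643 in wild-type livers (median log2 ratio -0.27). Over all genes 15.0% were higher and 16.0% lower there. In PPARα-null livers 0 of 17 were higher and 1 lower (median -0.02), where 2.29% and 4.44% of all genes were. These small counts carry no test. The members lower in wild-type livers were led by Rab17, which sorts cargo in the recycling and transcytotic route of polarized epithelial cells. It read 63.5 in PPARα-null livers on Wy14643, 64.4 in PPARα-null controls, 25.3 in wild-type livers on Wy14643 and 83.3 in wild-type controls. By this probe set the wild-type Wy14643 pool was the low one, 3.30-fold below its control, whereas the PPARα-null pools were at a log2 ratio of -0.02. Its other probe set read 35.1 in wild-type livers on Wy14643 and 42.2 in wild-type controls, a log2 ratio of -0.26 that is under the threshold. Rab4a and Rab4b return receptors from early endosomes to the cell surface. Rab4a read 198 in PPARα-null livers on Wy14643, 247 in PPARα-null controls, 56.8 in wild-type livers on Wy14643 and 165 in wild-type controls, or 2.90-fold lower on Wy14643 in wild-type livers. For Rab4b the values were 51.2 and 52.6 in PPARα-null livers on Wy14643 and the control diet, and 26.3 and 50.6 in wild-type livers on the same diets, and the 3 pools other than wild-type on Wy14643 lay close together.

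Rab11b and Rab14, which act in the recycling of membrane from endosomes, showed the same order of pools. Rab11b read 542 and 487 in PPARα-null livers on Wy14643 and the control diet, and 251 and 489.8 in wild-type livers on the same diets, which made it 1.95-fold lower on Wy14643 in wild-type livers. Rab14 read 2261 and 1979 in PPARα-null livers on Wy14643 and the control diet, and 1047 and 1992 in wild-type livers on the same diets, or 1.90-fold lower, but its further probe sets stayed between -0.22 and -0.04 on the log2 scale. Rab11a, a paralogue of Rab11b, was not lower: it read 1256 and 1338 in PPARα-null livers on Wy14643 and the control diet, and 1617 and 1347 in wild-type livers on the same diets.

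Rab21 and Rab20 were the endosomal members with higher levels. Rab21, which guides integrins through early endosomes, read 186 in PPARα-null livers on Wy14643, 288 in PPARα-null controls, 491 in wild-type livers on Wy14643 and 292 in wild-type controls. The control pools hardly differed, and the Wy14643 pools lay on opposite sides of them, 1.55-fold below the control in PPARα-null livers and 1.68-fold above it in wild-type livers. Rab20, a GTPase of phagosomes and endosomes, read 16.5 and 20.1 in PPARα-null livers on Wy14643 and the control diet, and 32.4 and 19.1 in wild-type livers on the same diets, a 1.70-fold higher level in wild-type livers that lies near background.

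Core GTPases of the endocytic route differed little with the diet. Rab5a, which defines early endosomes, read 979.9 and 1055 in PPARα-null livers on Wy14643 and the control diet, and 828 and 940.3 in wild-type livers on the same diets. Its relatives Rab5b and Rab5c, which were dim, stood at log2 ratios of -0.02 and 0.03 in PPARα-null livers and -0.26 and -0.28 in wild-type livers. Rab7, which drives fusion of late endosomes with lysosomes, read 950.0 in PPARα-null livers on Wy14643, 1207 in PPARα-null controls, 1082 in wild-type livers on Wy14643 and 1128 in wild-type controls. Rab9, which returns mannose 6-phosphate receptors to the Golgi, read 1009.7 and 879.8 in PPARα-null livers on Wy14643 and the control diet, and 1738 and 1353 in wild-type livers on the same diets. As with Rab30 and Rab43, both PPARα-null pools were below both wild-type pools, by 1.72-fold on Wy14643 and 1.54-fold on the control diet. Rab22a, a GTPase of early endosomes, read 66.8 in the PPARα-null and 39.2 in the wild-type pool on Wy14643, a 1.70-fold higher level, with control pools at 50.3 and 49.2. Rab24, linked to autophagy, read 469 and 420.4 in PPARα-null livers on Wy14643 and the control diet, and 331 and 446 in wild-type livers on the same diets, and its PPARα-null level on Wy14643 was higher by 0.50 on the log2 scale, short of the threshold. Rab31, of the trans-Golgi network, and Rab7b also passed the threshold in no comparison.

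Of the GTPases that deliver vesicles to the plasma membrane, Wy14643 went with 0 of 6 higher and 2 lower in the wild-type. Over all genes 15.0% were higher and 16.0% lower there. In PPARα-null livers 1 of 5 was higher and 1 lower, where 2.29% and 4.44% of all genes were. Rab10, known for the insertion of glucose transporters in adipocytes, read 213 in PPARα-null livers on Wy14643, 137 in PPARα-null controls, 90.3 in wild-type livers on Wy14643 and 142 in wild-type controls. The control pools were alike and the Wy14643 pools diverged, 1.56-fold above the control in PPARα-null livers and 1.57-fold below it in wild-type livers. Rab8a, which directs exocytosis and cilium growth, read 111 and 214 in PPARα-null livers on Wy14643 and the control diet, and 148 and 169 in wild-type livers on the same diets. The PPARα-null Wy14643 pool stood 1.93-fold below its control, at a log2 ratio of -0.95, and 72 of 6912 genes, Rab8a included, were at least as far below. The wild-type log2 ratio was -0.20. Rab8b read 17.8 and 21.0 in PPARα-null livers on Wy14643 and the control diet, and 10.9 and 16.5 in wild-type livers on the same diets, and since the wild-type Wy14643 pool was below background it was at least 1.26-fold lower there, with 1.51-fold between the deposited values. Rab13, of tight junctions, Rab27b, of secretory granules, and Rab3d passed the threshold in no comparison.

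Rab32, which acts at mitochondria and in the formation of lysosome-related organelles, read 156 in PPARα-null livers on Wy14643, 164 in PPARα-null controls, 101 in wild-type livers on Wy14643 and 181 in wild-type controls. It was 1.78-fold lower on Wy14643 in wild-type livers and stood at a log2 ratio of -0.07 in PPARα-null livers. Rab12, which sends the transferrin receptor to lysosomes, read 21.9 and 26.0 in PPARα-null livers on Wy14643 and the control diet, and 51.2 and 27.9 in wild-type livers on the same diets, a 1.84-fold higher level on Wy14643 in wild-type livers. Rab28, a ciliary GTPase, read 45.4 and 43.7 in PPARα-null livers on Wy14643 and the control diet, and 42.2 and 46.6 in wild-type livers on the same diets, and its pools hardly differed by this probe set. Its other probe set above background read 24.5 and 33.4 in PPARα-null livers on Wy14643 and the control diet, and 37.9 and 27.4 in wild-type livers on the same diets, with log2 ratios of -0.45 for the diet in PPARα-null livers, 0.47 in wild-type livers and -0.63 between the genotypes on Wy14643, the last past 1.5-fold. Rab23, a negative regulator of Hedgehog signalling, and Rab40c also lay between the thresholds throughout. In all, 18 of the 38 members passed in no comparison by the probe set that stands for the gene, with log2 ratios between -0.53 and 0.50. Of their further probe sets above background, those of Rab28 and Rab11a passed. That of Rab11a gave 0.86 for the diet in wild-type livers and -0.67 between the genotypes on Wy14643.

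The study compared the genotypes on Wy14643, and the control diet gives the basal difference. On Wy14643, the PPARα-null level was higher for 11 of 38 Rab genes (28.9%) and lower for 7 (18.4%), where 17.7% of 7666 genes were higher and 16.6% lower (34.3% in all). On the control diet 1 of 36 was higher (2.78%) and 3 were lower (8.33%), where 2.48% of 7369 genes were higher and 2.43% lower. The 3 lower ones were Rab30, Rab43 and Rab9, with log2 ratios of -2.73, -0.63 and -0.62, and the higher one was Rab33b at 0.72. Rab43 and Rab9 lay just past the threshold, and Rab4a at 0.58 just short of it.

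On Wy14643 the members above 1.5-fold in PPARα-null livers were led by Rab4a (3.49-fold), Rab6a (3.10-fold), Rab17 (2.51-fold) and Rab10 (2.36-fold), followed by Rab14, Rab11b, Rab4b, Rab29, Rab22a, Rab32 and Rab8b (at least 1.37-fold, since the wild-type pool was below background). Those below it were Rab30, Rab43 (2.87-fold), Rab21 (2.64-fold), Rab12 (2.34-fold), Rab20 (1.97-fold), Rab34 (1.86-fold) and Rab9. This comparison and the diet ratio of wild-type livers use the same wild-type Wy14643 array, so a deviation of that array enters both. The difference between the diet responses, PPARα-null minus wild-type, was at least 1.5-fold in the upward direction for 11 of 38 members and in the downward direction for 8, where 16.0% and 16.4% of 7840 genes did so. It ran between -3.01 on the log2 scale for Rab30 and 1.70 for Rab17. With 1 array per group this difference was not tested.

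**Figure D3:**
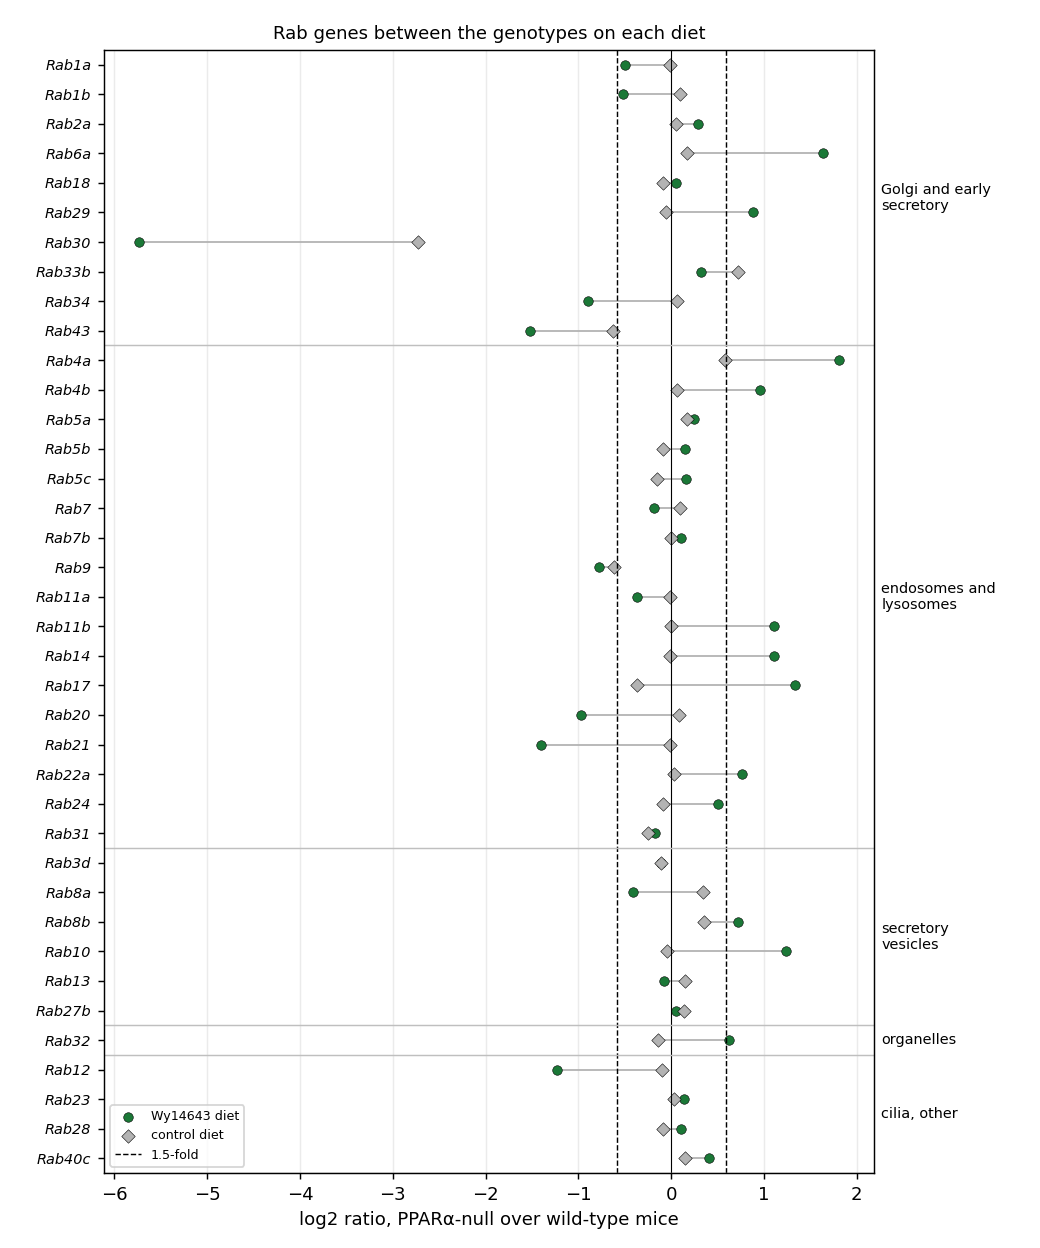
Log2 ratio of PPARα-null to wild-type livers (horizontal) for the 38 Rab genes on Wy14643 (circles) and on the control diet (diamonds), with dashed lines at 1.5-fold. Most control diet ratios lie near 0, with Rab30 at -2.73, whereas the ratios on Wy14643 spread between -5.73 (Rab30) and 1.80 (Rab4a).

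Since each array stood for a whole group, the probe sets that read different parts of a transcript gave the only internal check. Of the 16 members called for the diet in wild-type livers, 8 had further probe sets above background, 12 in all. Of these 11 had the same direction, 2 also reached 1.5-fold and 0 reached it in the opposite direction. The 2 belonged to Rab4a, at -1.84 by the dimmer probe set, and to Rab34, at 1.75 by the deposited values. That Rab34 probe set read 29.1 on Wy14643 and 8.68 in the control, below background, so the size of its ratio is uncertain. Rab14 lay at the other end: its probe set with the highest mean gave -0.93, and the others gave -0.16, -0.22, -0.09 and -0.04. For Rab17 the further probe set read -0.26, for Rab6a -0.47, for Rab43 0.32 and for Rab21 0.15. That of Rab21 lay at background, at 13.4 on Wy14643 and 12.0 in wild-type controls, and so says little about the gene. The further probe sets of Rab10 gave -0.42 and 0.17. Of the members not called, Rab11a had a dimmer probe set at 0.86. For PPARα-null against wild-type livers on Wy14643, 9 called members had 13 further probe sets, of which 9 shared the direction and 2 the call. The further probe sets of Rab17 and Rab6a gave -0.10 and 0.30 there, and those of Rab14 lay between -0.06 and 0.12, while those of Rab10 gave -0.55 and 0.28 and that of Rab22a above background gave 0.21. The higher PPARα-null levels of these 5 genes thus rest on 1 probe set each, and Rab4a was the only member called higher there whose further probe set above background also passed. When a call was kept only where every probe set of a gene above background passed, 4 members remained higher on Wy14643 in wild-type livers (Rab12, Rab20, Rab30 and Rab34) and 6 lower (Rab4a, Rab4b, Rab8b, Rab11b, Rab29 and Rab32), where 24.2% of 7603 genes were called. The same rule left Rab8a and Rab21 lower on Wy14643 in PPARα-null livers (4.60% of 7514 genes called). Between genotypes it left 6 members higher and 5 lower in PPARα-null livers on Wy14643 (26.6% of 7672 genes called), and Rab33b higher with Rab9 and Rab30 lower on the control diet (3.82% of 7380). Of the 10 left for wild-type livers, Rab4a and Rab34 are read by over 1 probe set above background and the rest by 1. The same holds between genotypes on Wy14643, and every member left in the other comparisons is read by 1. A gene read by 1 probe set cannot fail this rule. Of the 10 left for wild-type livers, Rab4b, Rab8b, Rab12, Rab20, Rab29 and Rab34 fell under 1.5-fold with 32 added to every intensity.

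**Figure D4:**
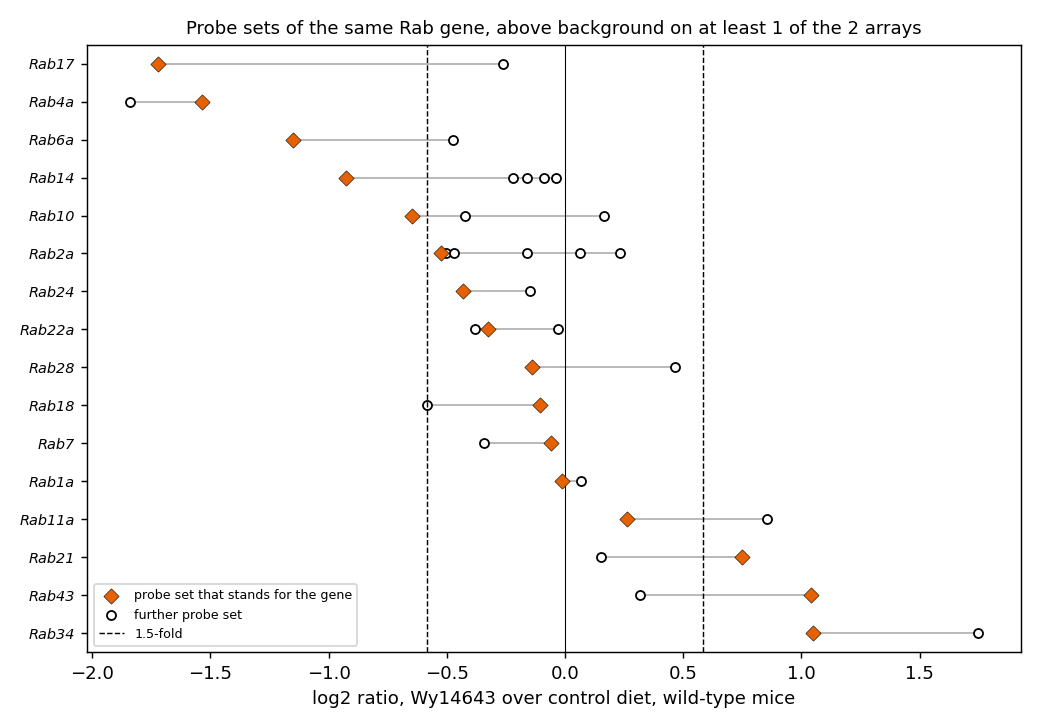
Diet ratio (Wy14643 over control, log2, horizontal) of wild-type livers for the 16 Rab genes that several probe sets above background read. Diamonds mark the probe set that stands for the gene and open circles the others. For Rab4a and Rab34 all lie past 1.5-fold (dashed), and for Rab14 the open circles lie between -0.22 and -0.04. The control value behind the Rab34 open circle is below background.

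Genes that run the Rab cycle were counted beside the GTPases: escort and prenylation proteins, GDP dissociation inhibitors, exchange factors, GTPase activating proteins and effectors. Of 151 listed genes 93 were on the array. In PPARα-null livers 0 of 67 above background were higher on Wy14643 and 2 lower (2.99% in all), where 6.73% of all genes passed. The 2 were Rabgap1 and Tbc1d22a, GTPase activating proteins named after their values were seen. In wild-type livers 6 of 69 were higher and 12 lower (26.1% in all, where 31.0% of all genes passed). On Wy14643, 13 of 69 had higher and 6 lower PPARα-null levels (27.5% in all), where 34.3% of all genes passed (17.7% higher, 16.6% lower). On the control diet 0 of 69 passed the threshold, where 4.91% of all genes did.

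Among those higher on Wy14643 in wild-type livers, Myo5b, a myosin motor that carries Rab11 vesicles, read 66.3 and 54.3 in PPARα-null livers on Wy14643 and the control diet, and 152 and 73.8 in wild-type livers on the same diets, or 2.05-fold higher. Rin2, an exchange factor of Rab5, was 1.70-fold and Trappc6a, a subunit of the TRAPP tethering complex, 1.63-fold higher. Inpp5b, a phosphoinositide phosphatase recruited by Rab proteins, read 255 and 204 in PPARα-null livers on Wy14643 and the control diet, and 70.0 and 180.0 in wild-type livers on the same diets, or 2.57-fold lower in wild-type livers with the agonist. In the same comparison Rufy3, an effector on endosomes and lysosomes, was 2.21-fold lower, and Ehbp1, a partner of Rab8 and Rab10, at least 1.98-fold. In PPARα-null relative to wild-type livers on Wy14643, Rufy3 was 3.97-fold, Inpp5b 3.64-fold and Hps4, part of the exchange factor of Rab32, 2.74-fold higher. Rin2 was at least 1.90-fold, Myo5b 2.29-fold and Rabggtb, the catalytic subunit of the enzyme that attaches the lipid anchor to Rab proteins, 1.86-fold lower.

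Whole liver was measured, so the Rab values hold all cell types, and fewer cells of a type cannot be told apart from less RNA per cell. The 13 markers of Kupffer cells, the macrophages of liver, summed to 813 and 1626 in PPARα-null livers on Wy14643 and the control diet and to 531 and 1345 in wild-type livers. Of those above background, 11 of 11 were lower on Wy14643 in PPARα-null livers (median log2 ratio -0.98) and 9 of 10 in wild-type livers (median -1.58), while Cd68 and Marco were below background on all arrays. The 11 sinusoidal endothelial markers summed to 870.4 and 1799.6 in PPARα-null livers and to 1008 and 1677 in wild-type livers on the same diets. On Wy14643, 7 of 10 were lower in PPARα-null livers and 2 of 10 in wild-type livers. The 10 stellate cell markers summed to 2841 and 2651 in PPARα-null livers and to 1153 and 2260.4 in wild-type livers. On Wy14643, 3 of 8 were higher and 1 lower in PPARα-null livers, and 4 of 7 were lower in wild-type livers. The 13 hepatocyte markers summed to 128547 and 129237 in PPARα-null livers and to 112071 and 128136 in wild-type livers. Of these, 0 of 13 were lower on Wy14643 in PPARα-null livers and 5 of 13 in wild-type livers. For all these lists, the shares over all genes on Wy14643 were 2.29% higher and 4.44% lower in PPARα-null livers. In wild-type livers they were 15.0% higher and 16.0% lower. The 7 neutrophil markers summed to 279.5 in PPARα-null livers on Wy14643 and to 72.3 to 80.5 in the other pools. The sum of 279.5 was mostly S100a8 and S100a9, at 106 and 105. Of those above background, 3 of 5 were higher on Wy14643 in PPARα-null livers, and Mpo and Camp were below background on all arrays. Markers of cholangiocytes, T or NK, B, erythroid and platelet cells had at most 3 members above background in any comparison. The part of these cell types in the Rab values was not tested.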

How the data were processed

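The deposited table holds linear intensity values of 22690 probe sets on 4 arrays, which the authors made with GCRMA (2.20 per the submitters' processing notes). Whether other arrays entered that GCRMA run is not given in the sources used here. GCRMA corrects for probe sequence and makes the distributions of the arrays alike, so a shift shared by most genes cannot be seen.

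After 64 control probe sets were left out, 22626 were used. A platform annotation gave 1 gene symbol to 20380 of them, several to 691 and none to 1555, and only the first kind was used. The probe set with the highest mean over the 4 arrays stood for a gene. Ratios were log2 values as deposited, without a pseudocount, and a gene was counted in a comparison when at least 1 of its arrays was at or above background. Where the lower array was below background, the background replaced it in folds given as at least a size. With 1 pooled array per group no test was run, and so few arrays limit the precision. Any member above background could be named, and values on all arrays are given for those called in a comparison, within 0.1 of the log2 threshold or brightest in their compartment. Of the Rab cycle genes called in the wild-type diet comparison or between genotypes on Wy14643, the 3 with the largest ratio in each direction were named. The members, compartments and gene lists were chosen with earlier results of these data known. The calculation of calls was tested on simulated data. Python 3.11.15, pandas 2.3.3 and, for cyclic loess, limma 3.58.1 in R 4.3.3 were used.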

Additional observations from a re-analysis of the deposited data

Results flagged for a closer look

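Rab21 and Rab10 passed 1.5-fold on Wy14643 in opposite directions in the genotypes, and these differences were not tested. Rab21 stood at a log2 ratio of -0.63 in PPARα-null livers and 0.75 in wild-type livers, a difference of -1.38. Rab10 stood at 0.64 in PPARα-null livers and -0.65 in wild-type livers, a difference of 1.29. The further probe sets of Rab10 gave -0.18 and -0.11 in PPARα-null livers and -0.42 and 0.17 in wild-type livers, so that neither passed the threshold, and the further probe set of Rab21 lay at background.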

How the results depend on the processing

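Counts of members called were set against their values under other settings: the median of a gene's probe sets, leaving out probe sets whose design allows several transcripts, 32 added to every intensity, dim values raised to background, no background filter, another background, arrays centred on their median, cyclic loess and a 2-fold threshold. Probe sets that allow several transcripts are called less specific below, whether the transcripts are of the same gene or of different genes. Without these probe sets, 6 members had none left. Rab4b, Rab12, Rab17 and Rab30 were among them, so their calls drop out of every count under that setting without having been judged. A rule that every probe set of a gene must pass was chosen after seeing the data. Of the counts and medians, 114 stayed alike (within 1.5 times for a count, within the spread of 0.32 for a median), every median among them, and 29 counts moved.

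For Wy14643 over control in PPARα-null livers, 1 member was higher, against 0 by the median of probe sets, with 32 added, at 2-fold and under the rule on every probe set. Lower were 2, against 1 by the median, with 32 added or after centring and 0 at 2-fold. In wild-type livers 6 were higher, against 3 with 32 added and 3 at 2-fold, and 10 lower, against 6 without the less specific probe sets, 6 with 32 added, 6 by every probe set and 3 at 2-fold. Rab4b and Rab17, both among the 10, had no probe set left without the less specific ones. With 32 added, Rab21, Rab30 and Rab43 stayed higher, and Rab4a, Rab6a, Rab11b, Rab14, Rab17 and Rab32 stayed lower.

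For PPARα-null over wild-type on Wy14643, 11 were higher, against 7 by the median, 7 without the less specific probe sets, and 6 with 32 added, by every probe set or at 2-fold, and 7 lower, against 4 at 2-fold. On the control diet 1 was higher, against 0 with 32 added and 0 at 2-fold, and 3 lower, against 1 at 2-fold. For the difference of responses 11 were higher, against 7 by the median, without the less specific probe sets or with 32 added and 6 at 2-fold, and 8 lower, against 4 with 32 added or at 2-fold.

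Of the values of single members, 319 stayed within the spread, 40 moved and 1 changed sign: Rab10 in PPARα-null livers read 0.64 by the probe set with the highest mean and -0.18 by the median of its probe sets. The cause was not tested. A value that stayed within the spread can still fall under 1.5-fold. Of 41 called values, 18 fell under it with 32 added and 11 by the median of probe sets. Centring and raising dim values each put 2 of 41 under it, and cyclic loess 0. Without the less specific probe sets 4 of 32 fell under it. No paired analysis was possible because each group has 1 array. Members near 13.0, such as Rab8b, Rab20 and Rab29, carry little signal over background.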
